A study of Mus musculus with 4 samples.

Results

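The vascular endothelial growth factor (VEGF) family was examined in mouse podocytes treated with IL-12. Its 9 members were taken by gene symbol from the deposited count matrix of 54532 genes and comprise 4 ligands (Vegfa, Vegfb, Vegfc and Pgf), 3 receptor tyrosine kinases (Flt1, Kdr and Flt4) and 2 neuropilins (Nrp1 and Nrp2). The cells were MPC5, a mouse podocyte line that proliferates under interferon-γ and differentiates after its removal. IL-12 was given at 400 ng/ml in 2 libraries, which were taken after 6 h, and 2 control libraries received saline. Whether the replicates were grown as separate cultures is not said in the sources used here, so the p-values measure the spread between these libraries, which may be technical. A line of immortalized cells also lacks the glomerular endothelium that receives VEGF in the kidney.

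VEGF ligands are secreted dimers that bind receptor tyrosine kinases on the cell surface. In the glomerulus, podocytes make VEGF-A, which crosses the basement membrane to the fenestrated endothelium and maintains it. Flt1 (VEGF receptor 1) binds VEGF-A, VEGF-B and placental growth factor, signals weakly, and is also made as a soluble form that captures ligand. Kdr (VEGF receptor 2) carries most VEGF-A signalling in endothelium, and Flt4 (VEGF receptor 3) binds VEGF-C and VEGF-D in lymphatic vessels. Nrp1 and Nrp2 are co-receptors with short cytoplasmic tails that bind VEGF and the class 3 semaphorins.

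The libraries held 18355379 to 20098012 counts, at which 3 counts equal 0.149 to 0.163 CPM (counts scaled to library depth, here by the total alone), a floor that covers counting error only. Of the 9 members, 7 passed the filter on low counts, and each of these 7 had at least 10 counts in every library. Kdr and Vegfc did not pass. Of 15 podocyte markers, 8 passed, among them Synpo, Podxl, Cd2ap and Kirrel, while Nphs1, which encodes the slit diaphragm protein nephrin, had at most 1 count in a library and Ptpro, Tcf21 and Dach1 had 0. Of the 8 tested, 3 were higher and 2 lower, including Synpo at a log2 fold change of -0.66, Plce1 at -0.54 and Podxl at 0.33, and the sum of all 15 was 2943 and 2928 CPM with saline and 2808 and 2795 CPM with IL-12. The label podocyte was therefore borne out by only part of its markers. Since VEGF receptors are best known from endothelium, 15 endothelial markers were counted beside them, and 2 of these, Egfl7 and Ehd3, passed the filter. The summed level of all 15 was 11.7 and 12.2 CPM with saline and 9.90 and 9.10 CPM with IL-12, with Tie1, Emcn, Cldn5 and Sox17 at 0 in every library and Pecam1 and Cdh5 at no more than 3 and 5 counts. Summed markers of other cell types also differed, going from 880 and 842 CPM to 631 and 670 CPM for 8 tubular markers (0 higher and 2 lower of 3 tested), and from 27.3 and 29.8 CPM to 16.2 and 20.4 CPM for 8 macrophage and leukocyte markers (0 higher and 1 lower of 2 tested). For 8 mesangial and pericyte markers the sums were 101 and 98.2 CPM, then 89.0 and 98.2 CPM (1 higher and 2 lower of 4 tested). Slc34a1, Umod, Adgre1, Tyrobp, Rgs5 and Ren1 were at 0. Few genes carried these sums. Actn4 and Kirrel held most of the podocyte counts, with 21732 and 16499 in control replicate 1. Lrp2 and Cdh16 held most of the tubular counts, with 12482 and 3923 in control replicate 1. In the same library Csf1r held most macrophage and leukocyte counts with 405, and Ehd3 most endothelial counts with 193. These sums were scaled by library total, and their part in the results that follow was not tested.

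Promoter windows at the RefSeq start sites of the 5 members that passed the test are shown because 4 of them rose and 1 fell. Each window holds 250 bases before and 50 bases from the RefSeq start site, read 5′ to 3′ on the strand of the gene, in GRCm38.p6. The windows lie at chr5:147725962-147726261 on the minus strand for Flt1, chr11:49609429-49609728 on the plus strand for Flt4, chr8:128358823-128359122 on the plus strand for Nrp1, chr1:62703067-62703366 on the plus strand for Nrp2 and chr19:6987602-6987901 on the minus strand for Vegfb. Capitals mark matches on either strand to the GC box (GGGCGG), the TATA box (TATAAA), the cAMP response element (TGACGTCA), the AP-1 site (TGANTCA) and the core of the HIF site (ACGTG), motifs that were picked after the windows had been read.
Flt1: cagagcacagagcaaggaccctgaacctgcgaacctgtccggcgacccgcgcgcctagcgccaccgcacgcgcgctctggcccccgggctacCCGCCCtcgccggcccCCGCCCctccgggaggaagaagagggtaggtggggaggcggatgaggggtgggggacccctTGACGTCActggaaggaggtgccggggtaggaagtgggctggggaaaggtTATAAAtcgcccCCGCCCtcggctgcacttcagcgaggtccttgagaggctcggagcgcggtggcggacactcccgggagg
Flt4: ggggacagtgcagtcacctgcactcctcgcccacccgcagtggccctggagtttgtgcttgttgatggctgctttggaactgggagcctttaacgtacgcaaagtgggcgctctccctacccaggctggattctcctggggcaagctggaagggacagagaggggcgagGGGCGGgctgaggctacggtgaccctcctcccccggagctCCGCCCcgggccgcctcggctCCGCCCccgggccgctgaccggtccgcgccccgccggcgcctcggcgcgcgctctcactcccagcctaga
Nrp1: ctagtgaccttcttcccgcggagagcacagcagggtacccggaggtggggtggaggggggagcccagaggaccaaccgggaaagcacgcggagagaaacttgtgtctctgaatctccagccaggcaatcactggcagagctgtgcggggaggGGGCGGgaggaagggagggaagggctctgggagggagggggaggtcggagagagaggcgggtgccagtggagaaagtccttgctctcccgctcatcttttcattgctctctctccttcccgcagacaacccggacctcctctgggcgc
Nrp2: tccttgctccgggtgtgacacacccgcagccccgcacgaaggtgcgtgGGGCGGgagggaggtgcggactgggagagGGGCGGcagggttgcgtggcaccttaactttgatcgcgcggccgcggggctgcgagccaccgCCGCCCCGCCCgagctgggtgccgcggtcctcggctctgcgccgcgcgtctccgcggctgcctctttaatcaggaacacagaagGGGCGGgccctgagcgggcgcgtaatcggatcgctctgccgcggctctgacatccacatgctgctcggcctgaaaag
Vegfb: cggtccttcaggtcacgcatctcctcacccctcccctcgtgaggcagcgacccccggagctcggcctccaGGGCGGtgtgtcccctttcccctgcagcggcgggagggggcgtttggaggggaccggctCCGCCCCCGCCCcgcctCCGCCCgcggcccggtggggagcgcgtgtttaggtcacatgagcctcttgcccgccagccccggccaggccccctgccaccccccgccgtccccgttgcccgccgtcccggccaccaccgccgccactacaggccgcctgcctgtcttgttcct

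All 9 members had such a window, 11 in all, since Vegfa and Pgf each had a second one. RefSeq start sites do not always match the gene coordinates given below. By these coordinates the Flt4 and Nrp1 genes start at 49609263 and 128358604, before their windows. The windows of Flt4 and Nrp1, both windows of Pgf and the second of Vegfa thus lie wholly inside the annotated gene. A GC box was found in 10 of the 11 windows and in 35.7% of the 32851 RefSeq windows of the same length, and the members' windows held 59.3% to 75.3% G and C. Matches to the same motif overlapped or touched in the windows of Nrp2 and Vegfb, and no match to one motif overlapped a match to another. Flt1 was the only member with a TATA box, with its first base at -31 from the start site, and with a cAMP response element, with its first base at -81. These motifs were present in 13.6% and 1.79% of all windows. The AP-1 letters were in 0 of the 11 windows, against 7.81% of all windows. The HIF core was in 1, the second window of Vegfa, against 19.6% of all windows. A match describes letters in a short window and is not a measured binding site.

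**Figure D1:**
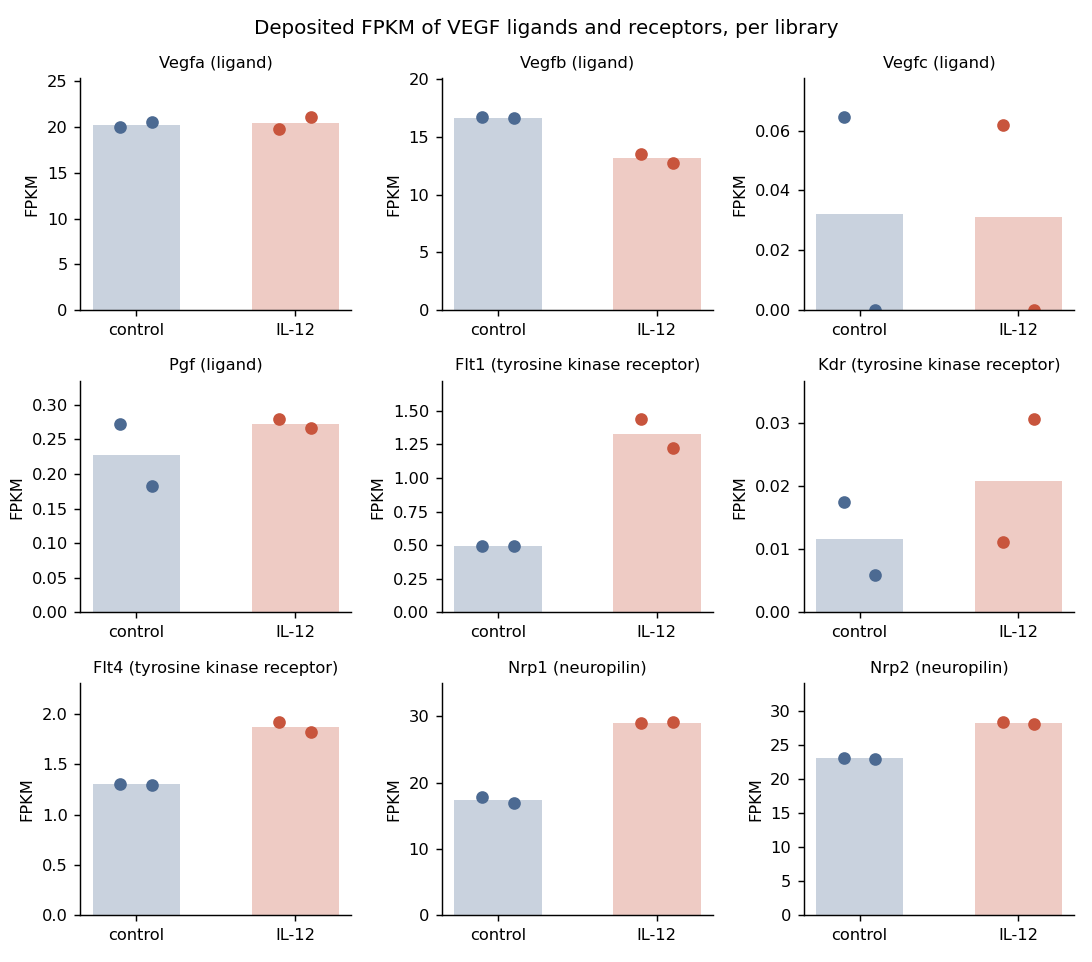
Deposited FPKM (fragments per kilobase, scaled to library depth) of the 9 members, 1 panel per gene with its own vertical axis from 0. Points are the 2 libraries of a group and bars their mean. The points of the IL-12 group lie above both control points for Flt1, Flt4, Nrp1 and Nrp2 and below them for Vegfb, while those of Vegfa, Vegfc, Pgf and Kdr overlap.

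Levels of different genes were compared as FPKM, which divides by the merged exon length of a gene, whichever of its transcripts are made. In the control group Nrp2 was highest with 23.1 ± 0.125 FPKM (SD, n = 2), followed by Vegfa with 20.2 ± 0.384 FPKM, Nrp1 with 17.3 ± 0.594 FPKM and Vegfb with 16.7 ± 0.0749 FPKM. The mean levels of these 4 genes were higher than those of 74.8% to 82.1% of the genes tested. The tyrosine kinase receptors were far lower, with 1.30 ± 0.00857 FPKM for Flt4 and 0.493 ± 0.00192 FPKM for Flt1, and Pgf had 0.228 ± 0.0635 FPKM. The ranges of neighbours in this order did not overlap down to Pgf. Vegfc and Kdr, the lowest, overlapped each other and could not be ordered. In the IL-12 group the order was the same except at the top, where Nrp1 with 29.1 ± 0.146 FPKM stood above Nrp2 with 28.3 ± 0.255 FPKM, and both stood above Vegfa with 20.5 ± 0.919 FPKM.

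The effect of IL-12 on each member was tested with edgeR's quasi-likelihood test over all 14095 genes that passed the filter. At an adjusted p below 0.05 and any fold, 4 of the 7 members tested were higher and 1 was lower, against 16.1% and 14.4% of all genes tested, or 30.5% in both directions. Over 2-fold, the limit of the study, 1 member was higher and 0 were lower, against 0.858% and 0.752% of all genes, or 1.61% together. The groups did not overlap for 5 of the 7 members, 4 higher and 1 lower, which was also so for 62.9% of all genes tested, 31.7% higher and 31.2% lower. By role, the 4 receptors tested were all higher, with a median log2 fold change of 0.63, and of the 3 ligands tested 0 were higher and 1 was lower, with a median of 0.01. The median of all genes tested was -0.0022. Of all genes past the threshold, 52.8% were higher, and 40.5% were higher with scaling by total counts, under which the 4 receptors and Vegfb kept their calls. Whether receptors and ligands differed as groups was not tested. In bulk RNA a change in the number of expressing cells and a change in RNA per cell cannot be told apart.

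**Figure D2:**
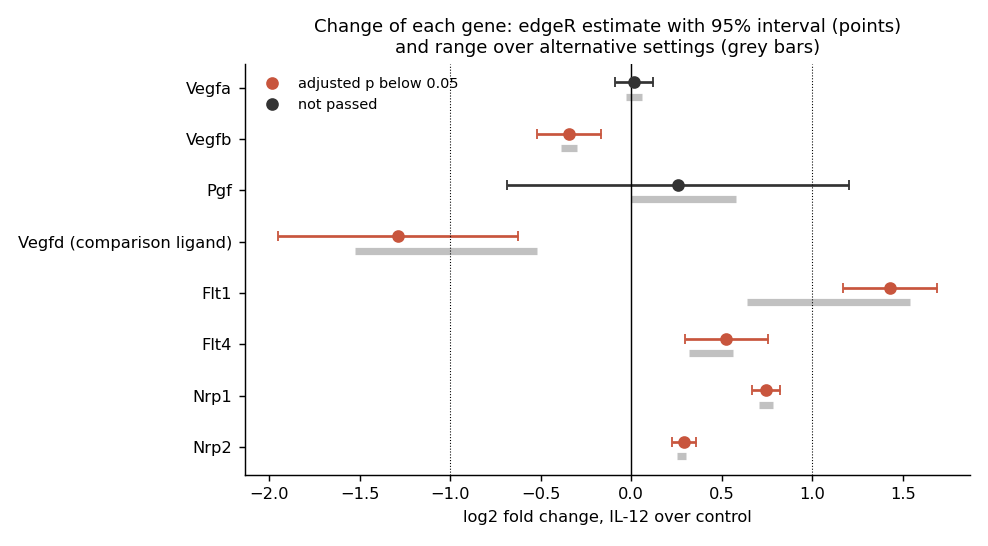
Log2 fold change of the 7 members tested and of Vegfd, IL-12 over control, with the 95% interval of the edgeR fit (red where the adjusted p is below 0.05, black otherwise). Grey bars span the values over up to 15 alternative settings and dotted lines mark 2-fold. The intervals of the 4 receptors lie above 0, those of Vegfb and Vegfd below it and those of Vegfa and Pgf across it.

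Flt1 (ENSMUSG00000029648, chromosome 5 of GRCm38 from 147561604 to 147726011) rose most. It had 126 counts in each control library and 383 and 299 counts in the IL-12 libraries. Both IL-12 libraries held more than 2 times the counts of either control library. Scaled to depth, the level went from 6.66 ± 0.0177 CPM to 17.9 ± 2.0 CPM (SD, n = 2 each), a 2.70-fold rise with a 95% interval of 2.25 to 3.23 and an adjusted p of 5.2e-08 by edgeR's quasi-likelihood test. Among the 14095 genes tested, 99.5% had a lower log2 fold change. When the 2-fold limit itself was tested, Flt1 did not pass (adjusted p = 0.0939, edgeR). GENCODE M21 lists 2 protein-coding transcripts of Flt1, 1 of which ends inside the gene, and counts per gene do not separate the membrane receptor from a soluble form.

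Flt4 (ENSMUSG00000020357, chromosome 11 from 49609263 to 49652739) had 204 and 201 counts with saline and 313 and 271 counts with IL-12. Every IL-12 value was above every control value. Its level rose 1.44-fold (95% interval 1.23 to 1.69), from 10.7 ± 0.0837 CPM to 15.4 ± 0.596 CPM (SD, n = 2 each), with an adjusted p of 0.00105 in the same edgeR fit. Kdr (ENSMUSG00000062960, chromosome 5 from 75932827 to 75978458) was near the floor, with 3 and 1 counts with saline and 2 and 5 counts with IL-12. The groups overlapped, and the ratio of their pooled counts was 1.70 with an exact 95% counting interval of 0.432 to 7.91. A difference in Kdr was not detectable at this depth.

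Within each library the makeup of the tyrosine kinase receptors could be read from FPKM. Flt1 made up 27.1% and 27.6% of the summed FPKM of Flt1, Kdr and Flt4 with saline and 42.6% and 39.8% with IL-12. Flt4 made up 71.9% and 72.1% with saline and 57.1% and 59.2% with IL-12. Flt4 thus held the larger share of FPKM in both groups. That order rests on merged exon lengths of 8232 bases for Flt4 and 13504 bases for Flt1. In counts, Flt1 stood above Flt4 in the IL-12 libraries, with 383 and 299 against 313 and 271. Which transcripts were made was not tested. The ratio of Flt1 to Flt4 in FPKM was 0.377 and 0.382 with saline and 0.746 and 0.673 with IL-12. The Kdr share was at most 0.996% in any library. The summed level of the 3 receptors was 1.82 and 1.80 FPKM with saline and 3.37 and 3.08 FPKM with IL-12.

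Both neuropilins rose. Nrp1 (ENSMUSG00000025810, chromosome 8 from 128358604 to 128503363) had 3294 and 3121 counts with saline and 5602 and 5159 counts with IL-12. Its level went from 170 ± 6.02 CPM to 284 ± 1.41 CPM (SD, n = 2 each), a 1.68-fold rise (95% interval 1.59 to 1.77) with an adjusted p of 3.68e-11 by edgeR. Nrp2 (ENSMUSG00000025969, chromosome 1 from 62703285 to 62818695) had 5203 and 5135 counts against 6657 and 6010. The rise of Nrp2 was smaller, 1.22-fold (95% interval 1.17 to 1.28), from 273 ± 1.82 CPM to 334 ± 3.04 CPM (SD, n = 2 each), and its adjusted p was 1.4e-06 in the same fit. For both genes the groups were apart, and the intervals of their fold changes did not overlap each other. The ratio of Nrp1 to Nrp2 in FPKM was 0.766 and 0.736 with saline and 1.02 and 1.04 with IL-12. Genes that overlap Nrp2 in the annotation had 22 and 3 counts over the 4 libraries beside 23005 for Nrp2, and the microRNA gene within Nrp1 had 0.

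Because the neuropilins were abundant, they exceeded the tyrosine kinase receptors by 22.5 and 22.2 times in summed FPKM in the control libraries. In the IL-12 libraries the excess was 17.0 and 18.6 times, as the kinases rose by a larger factor than the neuropilins.

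**Figure D3:**
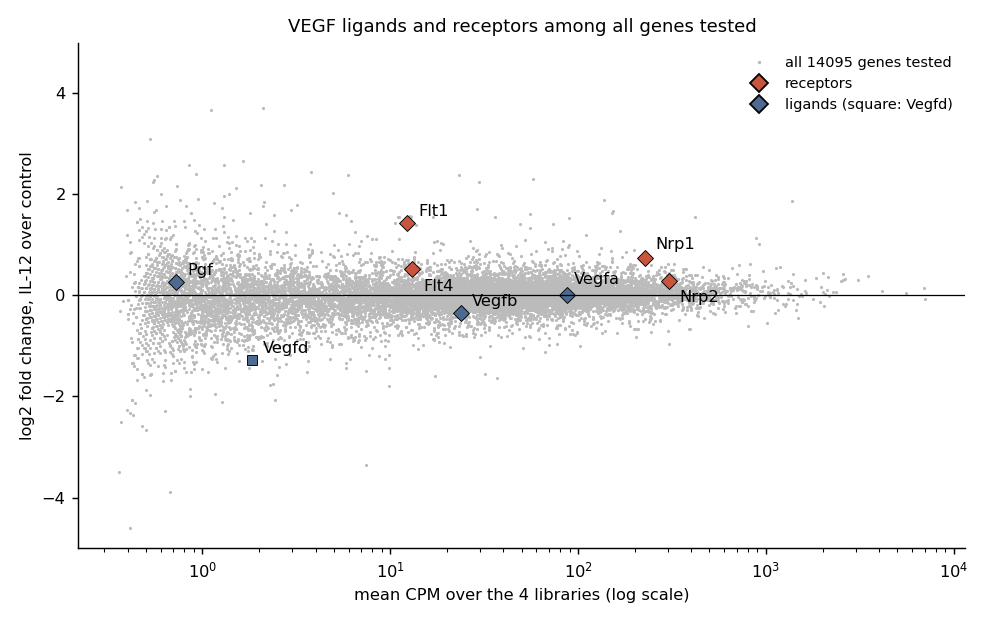
Mean level over the 4 libraries (CPM, log scale) against log2 fold change for all 14095 genes tested in grey, with receptors in red and ligands in blue. Flt1 and Nrp1 lie at the upper edge of the genes of similar level, Vegfa lies on the line of no change and Vegfd lies below it.

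Vegfa (ENSMUSG00000023951, chromosome 17 from 46016993 to 46032369), the ligand that podocytes supply to the glomerular endothelium, had 1623 and 1658 counts with saline and 1678 and 1635 counts with IL-12. The groups overlapped. The level was 86.8 ± 1.54 CPM and 87.6 ± 3.93 CPM (SD, n = 2 each), a ratio of 1.01 with a 95% interval of 0.939 to 1.08 and an adjusted p of 0.879 by edgeR. A rise of Vegfa above 1.08-fold lay outside this interval, which is a bound from 4 libraries and not a proof of an equal level. Its sign turned with scaling by total counts (-0.03 on the log2 scale) and by the upper quartile (-0.0025).

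Vegfb (ENSMUSG00000024962, chromosome 19 from 6982473 to 6987651), whose product binds Flt1 and not Kdr, was the member that fell. It had 509 and 503 counts with saline and 430 and 369 with IL-12. Both IL-12 libraries lay below both control libraries, and the level went from 26.8 ± 0.153 CPM to 21.1 ± 0.947 CPM (SD, n = 2 each). The ratio was 0.788 (95% interval 0.698 to 0.889) with an adjusted p of 0.00374 in the edgeR fit. Without IL-12 replicate 2 the log2 fold change was -0.30 and the adjusted p 0.0540, and without any other single library the call was kept. The gene next to Vegfb, Dnajc4, lies 260 bases away by gene coordinates and had a log2 fold change of 0.04 (adjusted p = 0.853, edgeR). Fkbp2 on the other side had 0.02 (adjusted p = 0.895, edgeR).

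Pgf and Vegfc were scarce. Pgf (ENSMUSG00000004791, chromosome 12 from 85166635 to 85177790), which encodes placental growth factor, had 15 and 10 counts with saline and 16 and 14 counts with IL-12. The groups overlapped, and the ratio of 1.196 had a 95% interval of 0.621 to 2.30 (adjusted p = 0.724, edgeR), so that a rise of up to 2.30-fold or a fall to 0.621 of the control level was not resolved at this depth. Vegfc (ENSMUSG00000031520, chromosome 8 from 54077606 to 54187096) had 3 and 0 counts in each group, and the ratio of pooled counts was 0.971 with an exact 95% counting interval of 0.130 to 7.25. The remaining ligand of the family, Vegfd (ENSMUSG00000031380, chromosome X from 164373378 to 164402650), was examined with them because its product binds Flt4. It had 58 and 40 counts with saline and 19 and 21 with IL-12, with no overlap between groups. Vegfd thus changed by -1.29 on the log2 scale (standard error 0.32, adjusted p = 0.00411, edgeR), but the call was lost without control replicate 1 (-0.997, adjusted p = 0.0874) and without IL-12 replicate 1 (-1.15, adjusted p = 0.0886).

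Over the 5 ligands, Vegfa made up 52.1% and 53.7% of the summed FPKM with saline and 58.1% and 61.0% with IL-12. Vegfb accounted for 43.7% and 43.5% with saline and 39.7% and 36.8% with IL-12. The summed ligands stood at 21.1 and 21.3 times the summed tyrosine kinase receptors in the control libraries and at 10.1 and 11.2 times in the IL-12 libraries. For Vegfa and Flt1 alone this ratio was 40.6 and 41.5 with saline and 13.8 and 17.2 with IL-12.

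The genes around the family were taken as lists, in which rose and fell mean an adjusted p below 0.05 in the edgeR fit, to be read against the 16.1% and 14.4% of all genes given above. The extracellular partners included Ccbe1, the largest change in these lists. Of 16 listed binders and processing factors, 13 were tested, of which 6 rose and 3 fell, with a median log2 fold change of 0.06. Adamts3, the protease that matures VEGF-C, did not pass the filter on low counts, and neither did Vegfc. Ccbe1, a secreted protein that helps Adamts3, had 20.6 and 18.1 CPM with saline and 96.6 and 95.3 CPM with IL-12. The fold change was 2.31 on the log2 scale (standard error 0.06), at an adjusted p of 6.98e-15 by edgeR. Of the list genes over 2-fold, Ccbe1, Ctgf and Ptgs2 also passed edgeR's test against the 2-fold limit, while Mmp9 (adjusted p = 0.114), Angpt2 (0.922), Bhlhe40 (1.0) and Itgb3 (1.0) did not. Ctgf, a matricellular protein that can bind VEGF-A, and Mmp9, a gelatinase that can release VEGF from matrix, rose by 1.55 and 1.44 on the log2 scale (standard errors 0.03 and 0.13). The study had already reported a rise of Ctgf, Mmp9 and Ptgs2 (cyclooxygenase-2) from its RNA sequencing and checked it by qPCR. The values of these genes here come from the same libraries and are not separate support. The plasminogen activator Plat rose by 0.54 (standard error 0.04).

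**Figure D4:**
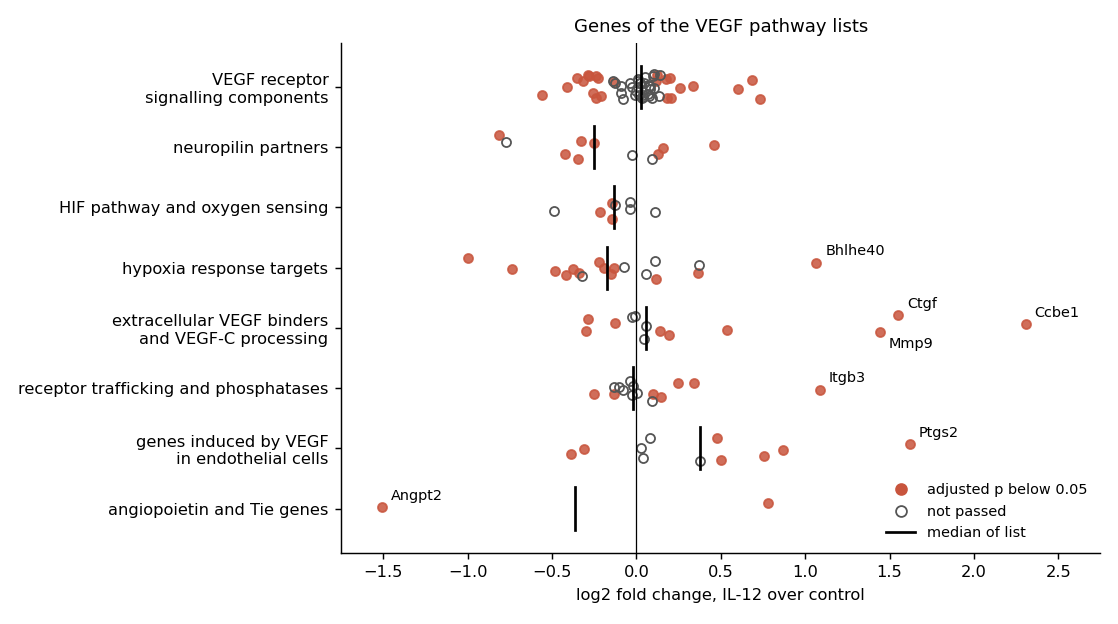
Log2 fold change, IL-12 over control, of each gene tested in 8 lists around the VEGF family. Filled red points have an adjusted p below 0.05, open points do not, and black lines are list medians. Genes over 2-fold are named, with Ccbe1 (2.31) farthest right and Angpt2 (-1.51) farthest left, and most other genes lie within 1 of 0.

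Neuropilin partners moved in both directions. Of 13 class 3 semaphorins, plexins and Gipc1, 11 were tested, of which 3 rose and 5 fell, with a median log2 fold change of -0.25. Sema3a and Sema3f, semaphorins that bind Nrp1 and Nrp2 respectively, fell by 0.42 and 0.33 on the log2 scale (standard errors 0.05 and 0.03). Sema3a had 150 and 153 CPM with saline and 108 and 118 CPM with IL-12. Of their plexin co-receptors, Plxna2 rose by 0.46 (standard error 0.06) and Plxna3 fell by 0.35 (standard error 0.05). The adjusted p was at most 2.16e-05 for these 4 genes in the edgeR fit.

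Components of VEGF receptor signalling inside the cell showed no common direction. Of 63 listed, 54 were tested, of which 11 rose, 12 fell and 31 did not pass, with a median log2 fold change of 0.03 and 0 over 2-fold. Pla2g4a, the cytosolic phospholipase A2 that frees arachidonic acid, rose by 0.73 (standard error 0.06), and the protein kinase C gene Prkca rose by 0.68 (standard error 0.06). The adaptor Gab1 fell by 0.56 (standard error 0.06) and the focal adhesion adaptor paxillin (Pxn) by 0.41 (standard error 0.04). With scaling by total counts 7 rose in place of 11, and without control replicate 1 or without IL-12 replicate 2 it was also 7. Of 16 trafficking genes and phosphatases, 15 were tested, with 5 higher and 2 lower and a median of -0.02. The 2 lower became 0 without IL-12 replicate 1 and 1 without control replicate 1, without IL-12 replicate 2 or with DESeq2. The 5 higher included Efnb2 (0.34, standard error 0.04), the ephrin ligand that promotes receptor internalization, and Itgav (0.25, standard error 0.03). Also among the 5 higher were Itgb3 (1.09, standard error 0.15), the integrin partner of Itgav, and the motor gene Myo1c (0.15, standard error 0.03). Itgb3 was under 2-fold without IL-12 replicate 1 and with limma on log2(FPKM + 1) (0.57) or log2(FPKM + 0.1) (0.99).

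Genes of oxygen sensing, the best known control of Vegfa, were also listed. Of 10 genes of the HIF pathway 8 were tested, with 0 higher and 3 lower (Arnt, Arnt2 and Hif1an) and a median log2 fold change of -0.13. The 3 lower became 1 without control replicate 1, without IL-12 replicate 1 or with DESeq2. Arnt2 fell by 0.22 (standard error 0.04). Arnt and Hif1an, at -0.14 each, lost their call in 7 of 15 alternative settings, with adjusted p up to 0.178 and 0.328. Of 20 targets of the hypoxia response, 18 were tested, of which 3 rose and 10 fell, with a median of -0.17. Ndrg1 fell by 0.995 (standard error 0.05), from 138 and 134 CPM to 69.1 and 67.6 CPM, and the mitophagy receptor gene Bnip3 fell by 0.74 (standard error 0.10). In the other direction, the glucose transporter gene Slc2a1 rose by 0.37 (standard error 0.05), and Bhlhe40, a circadian repressor, by 1.07 (standard error 0.06). What these values have to do with the level of Vegfa was not tested.

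Of 15 genes known to be induced by VEGF in endothelial cells, 11 were tested, of which 5 rose and 2 fell, with a median log2 fold change of 0.38. Ptgs2 (1.62, standard error 0.06), Dusp5 (0.87, standard error 0.07) and F3 (0.50, standard error 0.03), which encode cyclooxygenase-2, an ERK phosphatase and tissue factor, rose, and the protease gene Adamts1 fell by 0.31 (standard error 0.03). Many stimuli move these genes, and what moved them here was not tested. In the parallel angiopoietin system, 2 of 5 genes were tested. Angpt2, the context-dependent antagonist of the receptor Tek, had 4.86 and 5.83 CPM with saline and 1.77 and 1.99 CPM with IL-12, or -1.51 as log2 fold change (standard error 0.22, adjusted p = 2.82e-05, edgeR). Angpt4 had 17.8 and 20.5 CPM against 31.9 and 33.8 CPM, or 0.78 as log2 fold change (standard error 0.09, adjusted p = 1.29e-06, edgeR). Tek itself had 1 or 2 counts in a library.

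For each member that passed the test, the most similar patterns over the 4 libraries were found among 10563 genes of at least 5 CPM, as the Euclidean distance between log2 CPM values centred per gene. Mmp9 (0.0341), Fxyd5 (0.127) and Il1rl1 (0.150) were nearest to Flt1, and Emp1 (0.0154), Hmga1b (0.0288) and Pla2g4a (0.0463) to Nrp1. The nearest to Nrp2 were Hyou1 (0.0112), Xbp1 (0.0122) and Eif4g1 (0.0127), to Flt4 Chchd4 (0.0134), Epb41l2 (0.0212) and Ppa1 (0.0262), and to Vegfb H1f0 (0.0170), Smpd1 (0.0186) and Avpi1 (0.0235). With 4 libraries in 2 groups, a small distance reflects little more than a similar fold change and replicate spread.

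Among the nearest tested genes on the chromosome, the neighbours of the 4 receptors had log2 fold changes from -0.17 to 0.41. Itgb1, which lies 182291 bases beyond Nrp1 and encodes the integrin β1 chain, was at 0.41 (adjusted p = 9.98e-11, edgeR), and Pomp and Pan3 beside Flt1 were at 0.22 and -0.15.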

How the data were processed

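The authors deposited raw counts per gene, whole numbers without normalization, and FPKM values. Each deposited FPKM was proportional to the count per kilobase within a library. HISAT2, StringTie and build mm9 are named in the submitters' processing notes, with versions not given in the sources used here, while 98.3% of 54409 shared genes had the coordinates of GENCODE M21 (GRCm38), which are printed. The gene lengths of the 9 members equal their merged M21 exons. Whether counting used strand is not stated.

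The quasi-likelihood test of edgeR 4.0.16 (R 4.3.3) was run on the counts after filterByExpr (minimum 10 counts, 15 in total) and TMM scaling, and p-values were adjusted by Benjamini-Hochberg across every gene tested. CPM of genes tested are TMM-scaled, while the floor and summed markers use library totals. The smallest two-sided p of an exact permutation of 2 against 2 libraries is 0.333, so p-values rest on the spread edgeR shares across genes. The counts of replicates differed beyond sampling error (chi-square per degree of freedom 2.20 and 2.52). This cannot tell separate cultures from technical repeats such as separate library preparations of the same RNA. The fits were tested on simulated data.

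Alternatives used DESeq2 1.42.0 and limma 3.58.1 (log2 of FPKM plus 1 or 0.1), other scalings, filters and tests, a replicate block, and each library left out. Members and lists were chosen with earlier results of these data known. List genes named are the 4 with the smallest adjusted p at 1 CPM or more, and any over 2-fold. Of 2 rows named Aldoa, the longer was used. Some of the marker genes are not reported here by name.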

Additional observations from a re-analysis of the deposited data

How the results depend on the processing

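Flt1, Flt4, Nrp1 and Nrp2 were higher at an adjusted p below 0.05 in all 15 alternative settings run for each (highest 0.00737, 0.0427, 0.00146 and 0.00604). The count of members over 2-fold was 0 in place of 1 in a test against the 2-fold limit and with log2(FPKM + 1), where Flt1 was at 0.64. The small values of log2(FPKM + 1) follow from the added 1, which is above the level of Flt1 in the control group. With the replicate block 5 members passed, as without it, and 1 was over 2-fold. The deviations of same-numbered libraries had a correlation of -0.0323 across genes. With 2 libraries per group this cannot show whether they shared a culture or a day. Over all genes the block gave 241 calls over 2-fold in place of 227. Leaving out 1 library at a time left 4 to 5 members past the threshold and 1 over 2-fold, and 2528 to 3722 genes at any fold and 144 to 254 over 2-fold. The DESeq2 Wald test called 2705 genes at any fold and 103 over 2-fold, in place of 4297 and 227. Over 2-fold, the test against the limit gave 39 genes, log2(FPKM + 1) gave 38 and log2(FPKM + 0.1) gave 141. With scaling by total counts 40.5% of the genes past the threshold were higher, against 52.8% with TMM. The sign of Vegfa turned with total counts (-0.028), the upper quartile (-0.0025), without control replicate 1 (-0.0026) and without IL-12 replicate 2 (-0.032), within a range of -0.032 to 0.060 over the libraries left out, and its adjusted p was at least 0.499 throughout. DESeq2 gave Pgf no adjusted p. Of 29 list genes named, 27 kept their side of the threshold in all alternatives run for them, and of 128 recomputed list counts 118 stayed within 1.5 times. The named list genes were picked for a small adjusted p or a change over 2-fold in the main fit, which favours such stability. Vegfd was not counted among these 29. With 2 libraries per group and few counts, changes in Kdr, Vegfc and Pgf could not be resolved.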
